A study of Homo sapiens with 12 samples.

Results

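The signalling lymphocytic activation molecule (SLAM) family was examined in SU-DHL-4, an established human cell line of germinal centre B-cell-like diffuse large B-cell lymphoma (DLBCL). The 8 genes were the 7 receptors SLAMF1, SLAMF6, SLAMF7, CD48, CD84, LY9 and CD244 and the adaptor SH2D1A, taken by gene symbol from 46863 genes of the count table. 7 of the 8 genes had enough reads to be tested, among 16835 tested genes. SLAMF1 was selected on its values: of the 2001 genes that passed the test between the combination and AZD alone, it had the most negative log2 fold change. Its fold changes in comparisons that involve those libraries are therefore given as descriptions, without a test.

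RNA was sequenced from 4 groups of 3 libraries, all of them harvested after 72 h. The control group received DMSO, the solvent. The Ento group received 1 µM Entospletinib, an inhibitor of the kinase SYK. The AZD group received 0.01 µM AZD5153, a bivalent inhibitor of the bromodomain and extraterminal (BET) proteins. The Ento+AZD group received both agents at these doses. All groups came from the same line, so that the values describe 1 tumour-derived model without other cells of a lymph node. Total counts per library lay between 18121993 and 24675830, and 1 count equalled 0.0393 to 0.0564 CPM (counts scaled to a library of 1000000). The 7 B-cell markers summed to 3605 to 7437 CPM and the 5 germinal centre markers to 1185 to 1692 CPM in the 12 libraries. The 5 plasma cell markers summed to 588 to 949 CPM. Of these, JCHAIN had 711 CPM with DMSO (mean of 3 libraries), and SDC1 and PRDM1 had too few reads to be tested. JCHAIN did not pass the test in any comparison with DMSO. XBP1 passed with higher values after Ento, AZD and Ento+AZD, with log2 fold changes of 1.33, 1.14 and 1.70. TNFRSF17 passed with lower values after AZD and Ento+AZD, with log2 fold changes of -0.53 and -0.63, and did not pass with Ento. Markers of other blood cells were low, with sums of 1.66 to 7.95 CPM for 6 T-cell markers, 1.62 to 3.12 CPM for 6 natural killer cell markers and 2.28 to 7.68 CPM for 6 monocyte markers. Of these lists, CD3D, CD28, GNLY, NCR1, KLRF1 and FCGR3A were at 0 counts in every library. CD3G, CD5, KLRD1, CD14, LYZ and CSF1R had reads, but too few to be tested. The markers with enough reads to be tested were TRAC and CD3E (T cells), NKG7 and PRF1 (natural killer cells) and CD68 and ITGAM (monocytes).

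SLAM receptors are small immunoglobulin-like proteins of blood cells that bind mostly to themselves on a neighbouring cell. CD48 and CD244 are the exception and bind each other. Most receptors carry tyrosine motifs in the cytoplasmic tail, which recruit the adaptor SAP (encoded by SH2D1A) or, without it, inhibitory phosphatases. In lymphoid tissue they tune the contact between B cells and T cells and the killing of B cells by natural killer cells.

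The receptor genes lay side by side on chromosome 1, from 160485030 to 160862887 (GENCODE annotation of GRCh38), within 378 kb. SLAMF6, CD84, SLAMF1, CD48 and CD244 are read from the minus strand and SLAMF7 and LY9 from the plus strand. SH2D1A lies on chromosome X, from 124227868 to 124373197. In CD48, 976 exon bases are covered by a gene on the opposite strand, and since the use of strand in counting is not stated, its counts are uncertain to that extent. Start regions in RefSeq (GRCh38.p14) are shown for the 2 receptors that fell with Ento, SLAMF1 and CD48, and for SLAMF6, which did not fall. Each has 250 bases before the gene start in lower case and the 50 bases from the start on in capitals. The windows are chr1:160646995-160647294 for SLAMF1, chr1:160711773-160712072 for CD48 and chr1:160523206-160523505 for SLAMF6, each read 5′ to 3′ on the minus strand.
SLAMF1: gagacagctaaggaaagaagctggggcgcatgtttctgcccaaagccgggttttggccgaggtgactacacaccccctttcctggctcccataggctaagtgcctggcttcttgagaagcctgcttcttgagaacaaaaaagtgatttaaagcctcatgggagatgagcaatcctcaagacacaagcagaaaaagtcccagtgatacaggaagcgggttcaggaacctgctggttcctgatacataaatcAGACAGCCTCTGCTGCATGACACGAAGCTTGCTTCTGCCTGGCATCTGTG
CD48: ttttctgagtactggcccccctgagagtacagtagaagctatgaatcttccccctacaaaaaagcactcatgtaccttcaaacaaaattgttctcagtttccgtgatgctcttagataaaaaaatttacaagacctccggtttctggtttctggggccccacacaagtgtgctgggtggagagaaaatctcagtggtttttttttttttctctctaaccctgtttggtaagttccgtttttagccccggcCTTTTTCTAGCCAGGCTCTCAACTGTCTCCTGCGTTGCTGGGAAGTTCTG
SLAMF6: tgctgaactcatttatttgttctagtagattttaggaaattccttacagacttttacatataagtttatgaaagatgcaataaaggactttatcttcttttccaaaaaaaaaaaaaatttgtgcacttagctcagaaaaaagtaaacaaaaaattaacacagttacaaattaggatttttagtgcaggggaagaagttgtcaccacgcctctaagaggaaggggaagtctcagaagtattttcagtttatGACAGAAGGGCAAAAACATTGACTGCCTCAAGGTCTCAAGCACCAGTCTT

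These windows were searched on both strands for 5 motifs of B-cell transcription factors. GAGGAA, the core bound by PU.1, occurs in the SLAMF6 window, with its first base at -36 from the gene start, and in 27.9% of 35116 windows of all genes. CCCNNGGG (EBF), ATGCAAAT (octamer), GGGNNTTCC (NF-kB) and CACGTG (E-box) are absent from the 3 windows. They occur in 19.1%, 1.77%, 6.58% and 7.26% of all windows. The SLAMF1 and CD48 windows hold none of the 5 letter strings. The CD244 window, not shown, holds CCCNNGGG at -162, counted from the RefSeq start. The SH2D1A window (chrX:124346313-124346612), also not shown, holds GAGGAA on the opposite strand at -202 from the RefSeq start. That start lies inside the GENCODE gene, which begins at 124227868. No window was available for CD84, LY9 and SLAMF7, so these were not searched. The GC content was 51.0% for SLAMF1, 44.7% for CD48 and 33.7% for SLAMF6.

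The receptors differed widely in level in cells that received DMSO alone. Per kb of exon, CD48 stood highest with 59.0 ± 6.72 CPM per kb (SD, n = 3) in DMSO, at percentile 94.6 of the tested genes with a length. SLAMF6 followed with 21.1 ± 0.675 CPM per kb and LY9 with 8.66 ± 0.955 CPM per kb. CD84 had 1.69 ± 0.307, SLAMF1 0.433 ± 0.288, CD244 0.354 ± 0.130 and SLAMF7 0.0893 ± 0.0156 CPM per kb. The ranges of neighbours in this order did not overlap in DMSO, except between SLAMF1 and CD244. CD48 alone took 55.1% of the counts of the 7 receptors, LY9 22.7%, SLAMF6 16.7% and CD84 4.54%.

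SH2D1A had 0 counts in all 12 libraries, where 3 counts would equal 0.118 to 0.169 CPM. SH2D1B, the gene of the related adaptor EAT-2, also had 0 counts. Thus both SH2D1 adaptors of the family were below detection at this depth. Of the remaining family members and ligands, SLAMF9 and CD2 had 0 counts and SLAMF8 0 to 1. CD58, the ligand of CD2, had 0 to 6 counts per library. None of these 4 was tested.

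**Figure D1:**
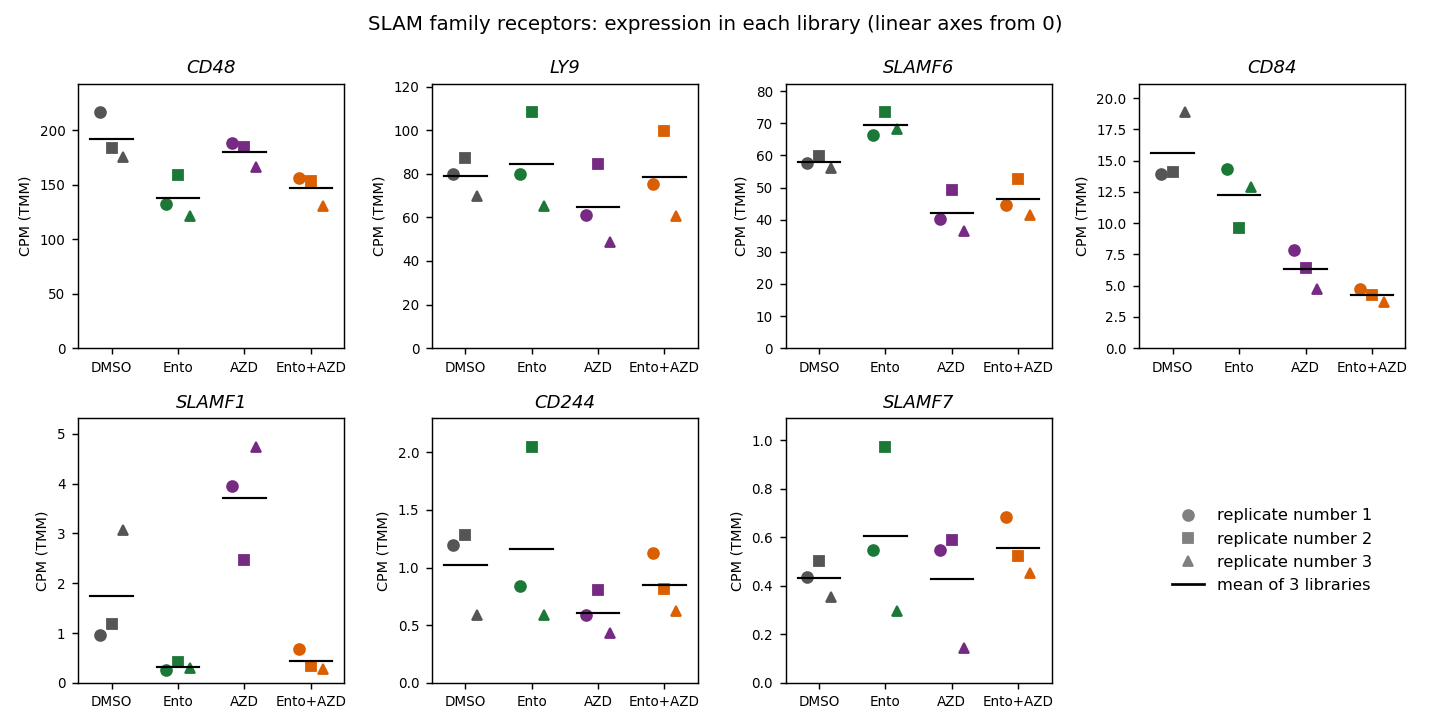
Normalised expression (CPM, TMM scaled, linear axes from 0) of the 7 detected SLAM receptors in each of the 12 libraries, by exposure, with symbols for the replicate number and a line for the mean of 3 libraries. SLAMF1 was at 0.252 to 0.410 CPM with Ento and at 0.282 to 0.685 CPM with Ento+AZD, below every DMSO library, while CD84 fell in both groups with AZD.

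The comparison of Ento with DMSO addressed SYK inhibition alone. SLAMF1, a self-ligand that also serves as an entry receptor of measles virus, and CD48, the ligand of CD244, were underexpressed after Ento exposure. SLAMF1 had 0.954, 1.19 and 3.07 CPM in the DMSO libraries, from 24, 26 and 78 counts. With Ento it had 0.252, 0.410 and 0.295 CPM, from 6, 8 and 6 counts. The groups did not overlap, and DMSO replicate 3 lay above the other DMSO libraries by more than counting error, with an exact 95% Poisson interval of 2.42 to 3.83 CPM. The log2 fold change was -2.39 ± 0.45 (SE, adjusted p = 0.00545), a 5.24-fold decrease. SLAMF1 had enough reads to be tested through the DMSO and AZD libraries, where it was higher. Its Ento libraries, with 6 to 8 counts, stayed under the minimum count of 10. The fit also took its spread and replicate terms from the libraries by which SLAMF1 was chosen. The adjusted p is therefore not independent of the filter and of that choice. Within replicate numbers 1, 2 and 3, SLAMF1 was 3.78-fold, 2.91-fold and 10.4-fold lower with Ento. It ranked at place 6 of the 617 genes that fell, ordered by log2 fold change. When the replicate term was dropped, the value was -2.45 and the adjusted p was 0.0873, which ends the call.

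CD48 had 216.8, 183.8 and 175.5 CPM with DMSO and 132.7, 158.9 and 120.9 CPM with Ento. All Ento libraries lay below all DMSO libraries. The log2 fold change was -0.48 ± 0.08 (SE, adjusted p = 0.00349), a decrease of 28.5%, against an adjusted p of 0.151 without the replicate term. The 5 remaining receptors did not pass. SLAMF6, a self-ligand, had the smallest adjusted p of these (0.0643), with a log2 fold change of 0.26 (95% confidence interval 0.09 to 0.43) and higher values in all 3 replicate numbers. For CD84, a self-ligand, the interval ran from -0.73 to 0.01, and for LY9, likewise a self-ligand, from -0.12 to 0.26. CD244 and SLAMF7, with at most 40 counts in a library, had intervals of -0.52 to 0.78 and -0.36 to 1.23.

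In all, 2 of 7 receptors passed, both lower. These were CD48 and SLAMF1, which was selected for its fall when Ento was added to AZD. With the selected gene in it, the count is not comparable with the shares over all genes. Of all tested genes 8.32% passed with Ento and 3.66% were lower. That is 1401 genes, of which 442, 427 or 829 passed without Ento replicate 1, 2 or 3, while the count of receptors stayed at 2. SLAMF1 was a DEG (passing at 0.05 with values changed by more than 1 on the log2 scale), as were 0.535% of all genes in the lower direction. This call carries the limits of filter and choice named above. The median log2 fold change of the 7 receptors was 0.07, against 0.01 for all genes.

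The comparison of AZD with DMSO addressed BET inhibition alone, and here other receptors fell. CD84, SLAMF6 and LY9 were underexpressed, and CD48 did not pass. CD84 had 13.9, 14.1 and 18.9 CPM with DMSO and 7.84, 6.41 and 4.69 CPM with AZD. The groups were far apart, and the log2 fold change was -1.31 ± 0.18 (SE, adjusted p = 0.000518), a 2.49-fold decrease. Without the replicate term CD84 still passed, with the largest adjusted p over the 17 alternatives at 0.0165. SLAMF6 had 57.8, 59.8 and 56.1 CPM with DMSO and 40.3, 49.1 and 36.5 CPM with AZD, again without overlap. For SLAMF6 the log2 fold change was -0.47 ± 0.08 (SE, adjusted p = 0.00185; 0.0690 without the replicate term).

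LY9 had 79.9, 87.1 and 69.8 CPM with DMSO and 61.2, 84.7 and 48.8 CPM with AZD. These ranges overlapped, because replicate number 2 was highest in both groups, but the AZD library was the lower one in each of the 3 numbers. The fitted log2 fold change was -0.32 ± 0.09 (SE, adjusted p = 0.0203). This call was lost in 6 of 17 alternatives: without the replicate term (adjusted p = 0.518), with only these groups in the model (0.0765), without DMSO replicate 1 (0.0598) or 3 (0.101), and without AZD replicate 1 (0.0588) or 3 (0.132). CD244, the receptor of CD48, had a log2 fold change of -0.74 with an interval of -1.46 to -0.02 and an adjusted p of 0.129. CD48 itself had -0.10, with an interval of -0.27 to 0.08.

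Thus 3 of 6 receptors passed with AZD, all of them lower, where 22.2% of all genes passed and 12.7% were lower. The 3745 genes behind the first share became 1846 or 1253 without AZD replicate 2 or 3 and 2443 without DMSO replicate 3. CD84 was the DEG among them, compared with 2.53% of all genes as DEGs in that direction. The receptors' median log2 fold change was -0.40, against 0.01 for all genes. The T-cell markers summed to 1.66 to 3.39 CPM with AZD and to 5.34 to 6.40 CPM with DMSO. Their detected members TRAC (16 to 133 counts) and CD3E (9 to 51 counts) fell with AZD as well, with log2 fold changes of -1.12 and -1.02 (adjusted p = 0.00409 and 0.0241), whereas CD3D and CD28 were at 0. The part of these markers in the receptor values was not tested. In bulk RNA, fewer expressing cells and less RNA per cell cannot be told apart.

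SLAMF1 was at 3.96, 2.46 and 4.74 CPM with AZD, from 94, 46 and 98 counts. These values overlapped with DMSO, whose replicate 3 reached 3.07 CPM. As a description, its log2 fold change was 1.14 with an interval of 0.50 to 1.79. It ran from 0.74 without DMSO replicate 1 to 1.69 without DMSO replicate 3. It was 4.15-fold, 2.06-fold and 1.55-fold higher within the replicate numbers.

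**Figure D2:**
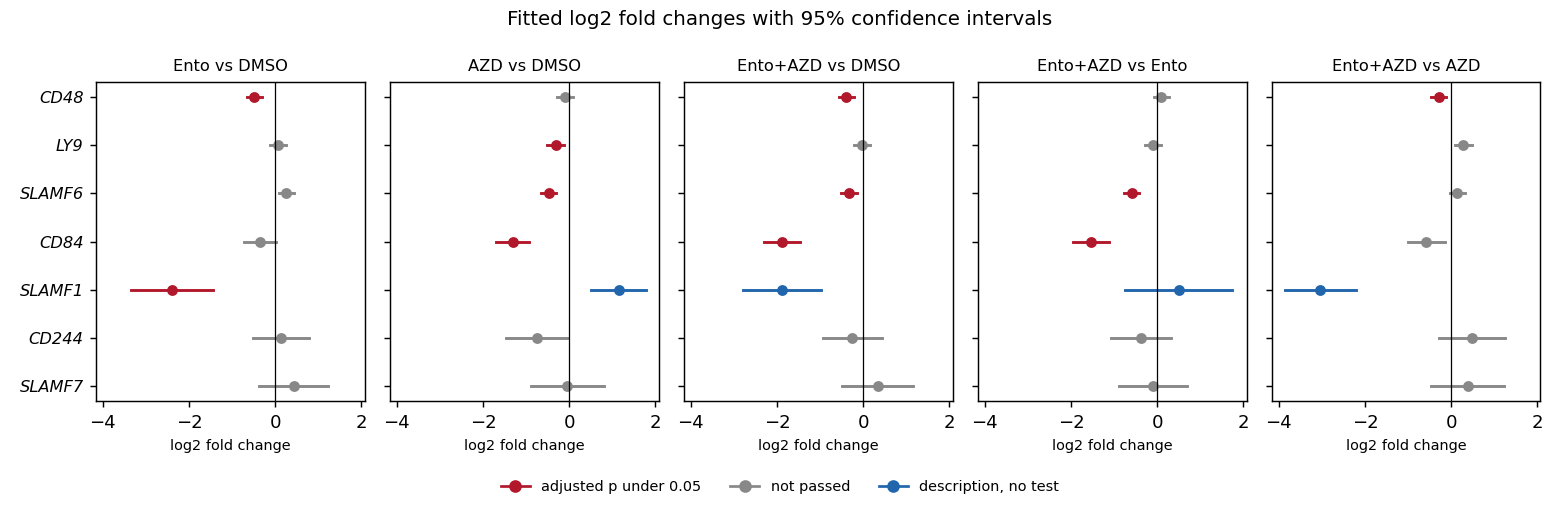
Fitted log2 fold changes (x axis) of the 7 detected SLAM receptors (y axis) in 5 comparisons, with 95% confidence intervals as bars and the outcome of the test as colour. CD84 and SLAMF6 moved to the left wherever AZD was added, CD48 wherever Ento was added to DMSO or to AZD, and SLAMF1 lay left of 0 in the comparisons of Ento with DMSO and of the combination with DMSO and with AZD.

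Combined exposure lowered CD84, CD48 and SLAMF6 compared with DMSO. CD84 had 4.70, 4.24 and 3.72 CPM with Ento+AZD, all below every library of the DMSO and Ento groups, and overlapping with the AZD group through AZD replicate 3, at 4.69 CPM. Its log2 fold change was -1.89 ± 0.19 (SE, adjusted p = 1.2e-05), a 3.70-fold decrease that passed in all 17 alternatives. CD48 had 156.6, 153.6 and 130.5 CPM with Ento+AZD, below all DMSO libraries. Its log2 fold change was -0.39 (adjusted p = 0.00221; 0.0526 without the replicate term). SLAMF6 had 44.5, 52.8 and 41.6 CPM, also below all DMSO libraries, with a log2 fold change of -0.33 (adjusted p = 0.00595; 0.0856 without the replicate term).

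The log2 fold change of LY9 with both agents was -0.04, with an interval of -0.22 to 0.15. CD244 and SLAMF7 had intervals of -0.94 to 0.44 and -0.48 to 1.16. Hence 3 of 6 receptors passed, all lower, next to 40.0% of all genes in either direction and 20.8% lower. CD84 was again a DEG, as were 4.89% of all genes in the lower direction. The median over the 6 receptors was -0.29, against 0.01 for all genes. The T-cell markers summed to 1.86 to 2.69 CPM with Ento+AZD, and TRAC fell by 1.89 on the log2 scale (adjusted p = 5.78e-05). PRF1, at 3 to 23 counts, fell by 1.44 (adjusted p = 0.0215) and CD68, at 36 to 110 counts, rose with 0.75 (adjusted p = 0.0286). The part of these markers in the receptor values was not tested.

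SLAMF1 had 0.685, 0.334 and 0.282 CPM with Ento+AZD, from 14, 7 and 5 counts. All 3 values were below the DMSO libraries and below the AZD libraries, and they overlapped with the Ento libraries. As a description, the log2 fold change against DMSO was -1.89, with an interval of -2.80 to -0.98. It ran from -2.48 without Ento+AZD replicate 1 to -1.36 without DMSO replicate 3.

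The comparison of Ento+AZD with Ento addressed what BET inhibition changed when SYK was inhibited at the same time. CD84 and SLAMF6 fell again. CD84 had 14.3, 9.62 and 12.9 CPM with Ento and decreased from there with a log2 fold change of -1.53 ± 0.19 (SE, adjusted p = 0.000339). SLAMF6 had 66.3, 73.6 and 68.3 CPM with Ento, the highest values of this receptor, and none of the Ento+AZD libraries reached them. Its log2 fold change was -0.59 ± 0.08 (SE, adjusted p = 0.000525). Both calls held without the replicate term, with adjusted p = 0.0155 for CD84 and 0.0421 for SLAMF6 as the largest over all alternatives. In total 2 of 6 receptors passed, both lower, compared with 20.4% of all genes in either direction and 12.2% lower. The first share, 3440 genes, became 1805 or 1402 without Ento replicate 1 or 3, and 2053 or 1881 without Ento+AZD replicate 1 or 3. CD84 was a DEG, as were 2.47% of all genes in that direction. The median over the 6 receptors was -0.24, against -0.01 for all genes. The T-cell markers TRAC and CD3E were lower in this comparison too, with log2 fold changes of -1.83 (adjusted p = 0.00045) and -0.90 (adjusted p = 0.0383), and their part in the receptor values was not tested. The log2 fold change of SLAMF1 was 0.50, with an interval of -0.75 to 1.74.

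The comparison of Ento+AZD with AZD was that by which SLAMF1 was chosen. Its log2 fold change was -3.03 with an interval of -3.87 to -2.20, equal to 8.19-fold lower values. The value was -3.64 without Ento+AZD replicate 1 and -2.55 without Ento+AZD replicate 3. The next genes that passed were COL24A1 with -2.64 and TNF with -2.42. Among the 6 other receptors 1 passed, CD48, with a log2 fold change of -0.29 ± 0.08 (SE, adjusted p = 0.0359). All 3 Ento+AZD libraries of CD48 lay below the 3 AZD libraries, which had 188.0, 184.5 and 166.4 CPM. The call was lost in 7 of 17 alternatives, namely without any 1 of the 3 AZD libraries (adjusted p = 0.107, 0.0919 and 0.119 for numbers 1 to 3) or the 3 Ento+AZD libraries (0.103, 0.0922 and 0.118), and without the replicate term (0.407). CD84 and LY9 missed the threshold with log2 fold changes of -0.57 (adjusted p = 0.0811) and 0.28 (adjusted p = 0.0525), and each passed in 5 of 17 alternatives. Of all genes 11.9% passed and 6.04% were lower. Leaving out any 1 AZD or Ento+AZD library reduced the first share from 2001 genes to between 595 and 1266. The median over the 6 receptors was 0.21, against -0.0022 for all genes.

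The libraries with the same replicate number shared part of their level. LY9 was highest in replicate number 2 of every group, with 87.1, 108.4, 84.7 and 99.8 CPM in the order DMSO, Ento, AZD and Ento+AZD, and lowest in number 3, with 69.8, 65.3, 48.8 and 60.6 CPM. In the 3 groups with an inhibitor, the distance between these numbers was larger than that between any group means, which were 78.9 ± 8.71, 84.6 ± 21.9, 64.9 ± 18.2 and 78.5 ± 19.8 CPM (SD, n = 3). SLAMF6 was highest in number 2 of every group as well, with 59.8, 73.6, 49.1 and 52.8 CPM. The calls of LY9 and SLAMF6 against DMSO were lost without the replicate term, whereas that of SLAMF6 for Ento+AZD against Ento was kept.

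CD244 and SLAMF7, an antigen of plasma cells and target of the antibody elotuzumab, were the weakest receptors that were tested. CD244 had 9 to 40 counts per library, with means of 1.02 ± 0.377, 1.16 ± 0.779, 0.609 ± 0.184 and 0.852 ± 0.255 CPM with DMSO, Ento, AZD and Ento+AZD (SD, n = 3). SLAMF7 had 3 to 19 counts, with means of 0.432 ± 0.0753, 0.605 ± 0.343, 0.427 ± 0.245 and 0.553 ± 0.120 CPM. For both genes the 4 groups overlapped, and Ento replicate 2 was the highest library, with 2.05 CPM for CD244 and 0.973 CPM for SLAMF7. Neither gene passed in any comparison, and at this depth changes of the size seen for CD48 were not detectable in them.

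Whether the effect of Ento differed with AZD was tested by the interaction of the agents. None of the 6 receptors tested had an adjusted p under 0.05 in edgeR's quasi-likelihood test, and 0 had an unadjusted p under 0.05. Of all genes 0% passed, with 1652 at an unadjusted p under 0.05, 7 passing in DESeq2, 278 passing when low counts were kept and 213 passing without DMSO replicate 2. The intervals were wide. They ran from -0.79 to 0.35 for CD84, from -0.37 to 0.13 for SLAMF6, from -0.06 to 0.44 for CD48 and from -0.05 to 0.48 for LY9. For SLAMF1, as a description, the interval ran from -2.09 to 0.80.

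To see how the receptors stood within their chromosomal region, all genes starting within 500 kb of the cluster were listed. Of 43 such genes in the count table, 26 were tested. With Ento 1 of the 26 passed, where 8.32% of all genes did. This was TSTD1, with a log2 fold change of -0.91 (adjusted p = 0.00868; 0.471 without the replicate term), which shares exons on the same strand with another annotated gene. With AZD 5 passed, 2 higher and 3 lower, next to 22.2% of all genes. With Ento+AZD 8 passed, 6 higher and 2 lower, next to 40.0% of all genes, so that neither count exceeded the share over all genes. The count with AZD was 3 without DMSO replicate 2, and 2 or 1 without AZD replicate 2 or 3. The count with Ento was 0 without Ento replicate 1 and 2 without DMSO replicate 1 or 3. The genes that passed with Ento+AZD included PEA15, with a log2 fold change of 0.64, and NCSTN, a subunit of gamma-secretase, with 0.50. They also included PPOX, an enzyme of haem synthesis, with 0.46. DCAF8 had 0.32 and COPA, a coat protein of transport vesicles, 0.27, whereas TSTD1 had -1.19. Without the replicate term PEA15 and PPOX still passed, and TSTD1 (adjusted p = 0.0898), NCSTN (0.0507), DCAF8 (0.0685) and COPA (0.0833) did not. COPA and NCSTN share exon bases on opposite strands, as do PPOX and B4GALT3, PEA15 and a gene without symbol, and DCAF8 and DCAF8-DT.

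**Figure D3:**
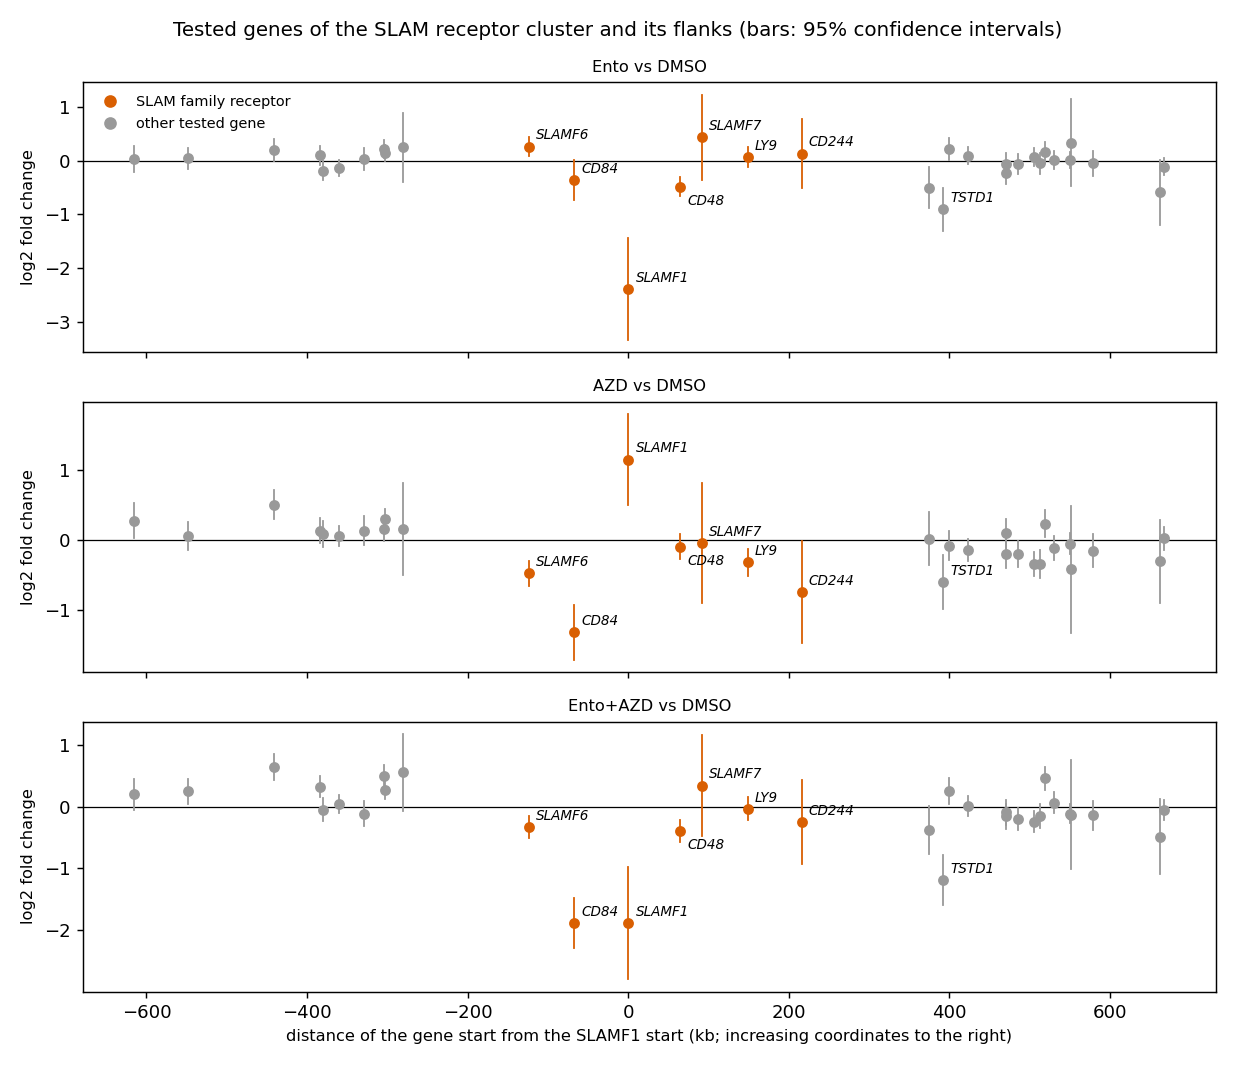
Log2 fold change (y axis, bars are 95% confidence intervals) of the tested genes of the SLAM cluster and its flanks against the distance of their start from that of SLAMF1 (x axis, kb), for 3 exposures against DMSO. SLAMF1, at -2.39 with Ento, stood apart from its direct neighbours CD84 and CD48, while CD84 and SLAMF1 were lowest with Ento+AZD, each at -1.89.

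Downstream of the receptors, 23 kinases, phosphatases and adaptors were listed, of which 21 were tested. With Ento 5 passed, 4 higher and 1 lower, next to 8.32% of all genes. FGR, a kinase of the SRC family, fell by 0.87 on the log2 scale. BLK, the B-cell member of that family, LCK, the exchange factor VAV1 and CSK, which restrains SRC family kinases, rose with log2 fold changes of 0.39, 0.38, 0.34 and 0.26. BLK shares exon bases with an opposite-strand gene. All 5 calls were lost without the replicate term (adjusted p = 0.363 for FGR, 0.324 for BLK, 0.521 for LCK, 0.510 for VAV1 and 0.298 for CSK), and the count was 2 or 1 without Ento replicate 1 or 2, and 3 without DMSO replicate 2 or 3. FYN, the kinase that SAP couples to the receptors, had 22.6 CPM with DMSO and 24.1 CPM with Ento and did not pass (adjusted p = 0.649). With AZD 7 of the 21 passed, 4 higher and 3 lower, next to 22.2% of all genes. The count was 1 without AZD replicate 2 or without AZD replicate 3, 3 without AZD replicate 1, and 4 without DMSO replicate 1 or 2 or Ento replicate 1.

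With Ento+AZD 13 of the 21 passed, 8 higher and 5 lower, next to 40.0% of all genes. PTPN6, which encodes the phosphatase SHP-1 that SLAM receptors can recruit, had 14.3 CPM with DMSO and 6.02 CPM with both agents, which gave a log2 fold change of -1.08 (adjusted p = 0.00469; 0.177 without the replicate term). DOK2, an inhibitory adaptor, had -1.15 and FGR -1.08, and both passed without the replicate term (0.0329 and 0.0463). LCK had -0.47 and DOK1, an adaptor related to DOK2, -0.46, both lost without it (0.169 and 0.0582). LOXL3 has exons opposite those of DOK1. BECN1, an autophagy protein that can associate with SLAMF1, had 0.65 and passed without the replicate term (0.0392), although its exons overlap with those of PSME3 and CNTD1 on the opposite strand. PTPN11, the gene of SHP-2, and INPP5D, the gene of SHIP-1, had log2 fold changes of -0.18 (adjusted p = 0.0546) and 0.26 (adjusted p = 0.0217). The addition of AZD to Ento moved 6 partners past the threshold, 3 in each direction (20.4% of all genes), and the addition of Ento to AZD moved 4, 1 higher and 3 lower (11.9% of all genes). The first count was 3 without replicate 1 or 3 of Ento or of Ento+AZD, and the second was 2 without AZD replicate 2 or 3 or any 1 Ento+AZD library. The median of the list with Ento+AZD was 0.11, against 0.01 for all genes.

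**Figure D4:**
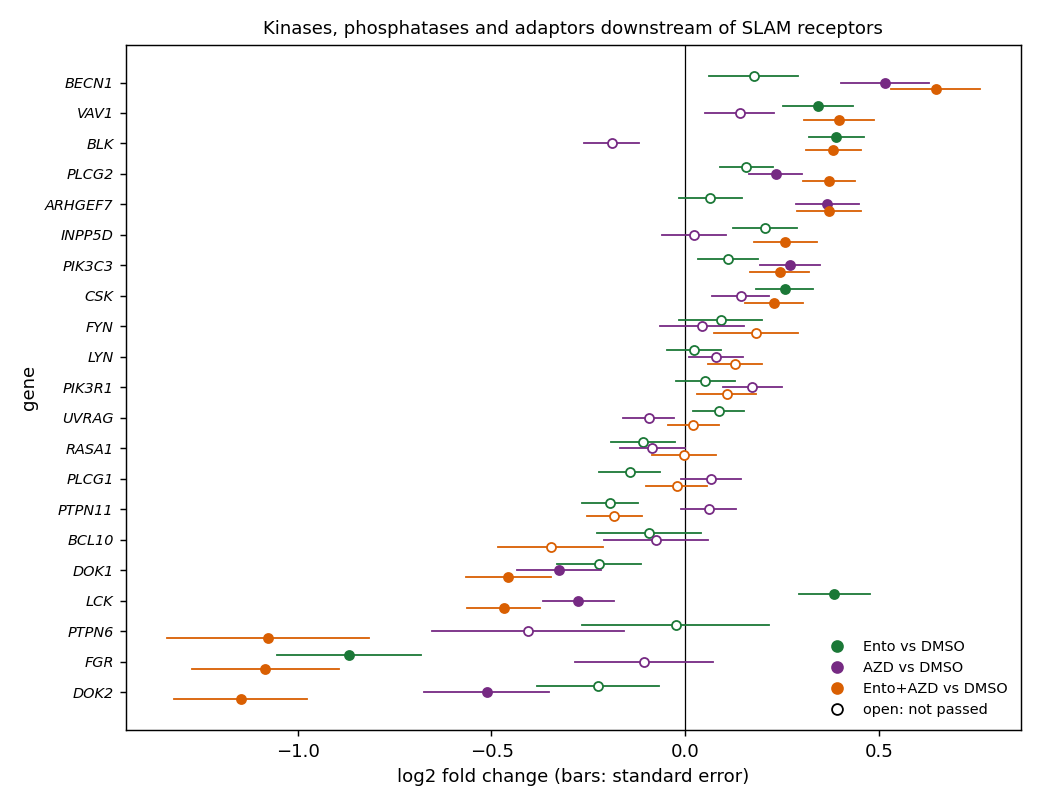
Log2 fold changes against DMSO (x axis, bars are standard errors) of 21 signalling partners of SLAM receptors (y axis, sorted by the value with Ento+AZD), with filled points for an adjusted p under 0.05. DOK2, FGR and PTPN6 lay lowest with Ento+AZD, at -1.15 to -1.08, and BECN1 highest, at 0.65.

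The genes whose pattern was most like that of SLAMF1 were found by the root mean square difference of centred log2 CPM over the 12 libraries. RAPH1, a regulator of actin protrusions, was nearest with 0.60, followed by SLC8A1, a sodium-calcium exchanger, with 0.67. LOC105376387, the deacetylase HDAC9 and the cell cycle inhibitor CDKN1A had 0.79, 0.83 and 0.83. The median over all genes was 1.40. CD48 stood at place 466 with 1.23, and the other receptors at place 13994 and beyond. SLC8A1 had 7.95 ± 1.02 CPM with DMSO, 1.18 ± 0.161 with Ento, 6.56 ± 2.01 with AZD and 1.65 ± 0.316 with Ento+AZD (SD, n = 3). RAPH1 had 0 to 32 counts in a library, and RAPH1, SLC8A1 and CDKN1A have genes on the opposite strand, so that these values are uncertain.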

How the data were processed

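The authors enriched polyadenylated RNA, trimmed single reads, used GRCh38.p13 for alignment and obtained gene counts from Rsubread. The deposited values are whole-number counts per gene symbol, without normalization. The use of strand is not given in the sources used here. A deposited table of log2 values was not used. Members and gene lists were chosen with earlier results of these data known.

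Low counts were removed with filterByExpr by group, at a minimum count of 10 and a total of 15. 16835 genes remained. Counts were scaled by TMM and fitted in edgeR 4.0.16 (limma 3.58.1, R 4.3.3) with group and replicate number as terms, without intercept, over all 12 libraries. Each contrast used edgeR's quasi-likelihood F-test, whose p-values were adjusted by Benjamini-Hochberg over all tested genes. SE was derived from the log2 fold change and its F statistic. The script was tested on simulated data. DESeq2 1.42.0 was an alternative. CPM intervals and floors of 3 counts cover counting error only. Positions and merged exon lengths came from GENCODE, matched for 86.6% of tested genes, and promoter windows from RefSeq.

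The series design calls the replicates biological. Batch was taken as the replicate number of the labels. Deviations from group means correlated at 0.213 to 0.703 in the 18 pairs of libraries with the same number and at -0.627 to 0.326 in the 36 others, so that the numbers were treated as pairing. Libraries of a group differed beyond sampling noise (chi-square per degree of freedom 9.06 to 54.1).

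Named were all members, family ligands, from each list the up to 6 passing genes with the largest change with Ento or Ento+AZD, and the 5 genes most like SLAMF1. 1 listed signalling partner is not reported here. FYN, PTPN11, INPP5D, PAX5, EBF1, COL24A1, TNF, the plasma cell markers and the markers of other blood cells were named after their values were seen.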

Additional observations from a re-analysis of the deposited data

How the results depend on the processing

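17 alternatives were run. CD84 passed in all of them against DMSO with AZD and with Ento+AZD, and against Ento with Ento+AZD, as did SLAMF6 in the last comparison. Without the replicate block the receptors passing were 0 with Ento (2 with it), 1 with AZD (3), 1 with Ento+AZD (3) and 0 for Ento+AZD against AZD (1), and SLAMF1 with Ento had -2.45 (adjusted p = 0.0873). Over all genes the unpaired counts were 36, 326, 2398, 206 and 17, against 1401, 3745, 6736, 3440 and 2001 with the block, in the order Ento, AZD, Ento+AZD, Ento+AZD against Ento and against AZD. Of the signalling partners 0, 0 and 4 passed against DMSO without it (5, 7 and 13 with it), of the flanking genes 0, 0 and 2 (1, 5 and 8) and of the transcription factors 0, 0 and 1 (3, 2 and 4). With only the groups compared, 3 partners passed with Ento and 2 with AZD. For Ento+AZD against AZD, DESeq2, no filter on low counts and only the groups compared each gave 3 receptors, and leaving out 1 library gave 0 to 3. Keeping low counts gave 2294 genes with Ento. Leaving out 1 library moved SLAMF1 with Ento between -2.80 and -1.85. Signs changed only for values that had not passed or had no test. Over the fits without 1 library, LY9 ran from -0.050 to 0.15 with Ento and from -0.16 to 0.054 with Ento+AZD. CD244 ran from -0.36 to 0.44 with Ento, from -0.53 to 0.13 with Ento+AZD and from -0.69 to 0.12 for Ento+AZD against Ento. SLAMF7 ran from -0.26 to 0.19 with AZD, from -0.29 to 0.28 for Ento+AZD against Ento and from -0.28 to 0.32 in the interaction (0.070 in DESeq2). SLAMF1 ran from -0.097 to 1.00 for Ento+AZD against Ento, the lowest value being without Ento+AZD replicate 1. The cause was not tested. Depth limits SLAMF1, CD244 and SLAMF7, whose libraries held as few as 5, 9 and 3 counts.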

Other observations

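Of 8 transcription factors of the B lineage, 7 were tested, and IRF4, a factor of plasma cell differentiation, had 0 to 9 counts per library. With Ento 3 of the 7 rose, namely POU2AF1, a coactivator of octamer-binding factors, SPIB and IRF8, with log2 fold changes of 0.47, 0.35 and 0.34, next to 8.32% of all genes that passed. With AZD 2 passed, 1 in each direction, next to 22.2% of all genes. POU2AF1 had -0.23 (adjusted p = 0.0249) and IRF8 0.48 (adjusted p = 0.0013), and 1 passed without DMSO replicate 2 or any 1 AZD library. With Ento+AZD 4 of the 7 rose: IRF8 with 0.65, POU2F2 with 0.38, SPIB with 0.24 and POU2AF1 with 0.20, next to 40.0% of all genes. Without Ento replicate 1 or 2 the count with Ento was 1, and without Ento+AZD replicate 1 or 3 that with Ento+AZD was 2. Of these calls, IRF8 with Ento+AZD held without the replicate term (adjusted p = 0.00742), and the 3 with Ento did not (0.0647 for POU2AF1, 0.582 for SPIB and 0.292 for IRF8). PAX5 and EBF1, which define the B lineage, did not pass in any comparison against DMSO, with log2 fold changes of -0.13 to 0.19. SPIB and POU2AF1 have overlapping exons of other genes, on the same and on the opposite strand respectively.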
